A study of Mus musculus with 18 samples.

Results

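Genes of fatty acid uptake and oxidation were followed in polyadenylated RNA of the mouse muscle line C2C12, whose myoblasts grow in rich serum and fuse to myotubes in low serum. The set holds 40 genes, listed by symbol and read from the table of raw counts, which has 55450 gene IDs. All 40 were found, and 39 had enough counts to be tested. The exception was Plin5, a coat protein of lipid droplets, with 0 to 3 counts in each library. Members are listed by their place in the pathway.

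Fatty acids reach a muscle cell from lipoprotein triglyceride, which lipoprotein lipase hydrolyses, or bound to albumin. Membrane transporters and cytosolic binding proteins take them up, acyl-CoA synthetases activate them, and the carnitine shuttle carries the acyl groups into the mitochondrion. There the chain is shortened in repeated rounds of dehydrogenation, hydration, a further dehydrogenation and thiolysis, and the electrons pass through electron transfer flavoprotein to the respiratory chain. Malonyl-CoA blocks entry at the carnitine step, and thioesterases, uncoupling proteins and lipid droplets take part in disposing of or storing what is not burned. In skeletal muscle the pathway is known as the main source of energy at rest and in long exercise.

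The 3 genotypes, each as 1 line, were sampled in the proliferating state (myoblasts) and after differentiation, on its day 3 (myotubes). Each of the 6 groups has 3 libraries, A, B and C. The control was a sorted population that received the empty pX458 vector, and the other lines each descend from 1 cell after Cas9 cutting with pairs of guides at the promoter of Meg3, a noncoding RNA gene of the imprinted Dlk1-Dio3 cluster. The labels call clone 2-4 an overexpressor and clone 2-7 a knockout of the cluster, and the series asks how the dosage of its noncoding RNAs bears on muscle cell state and differentiation. Genotype and clone cannot be told apart, since the controls were not cloned and each genotype is 1 line. The labels do not say that the replicates were separate cultures, so p-values measure only the spread between these samples.

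Libraries held 41544358 to 79140702 counts. Meg3 had 0 counts in every control library and in every library labelled knockout, and 5222 to 7763 counts in each overexpressor library, so it set the overexpressor apart and could not check the label of the knockout. The 7 muscle markers, which include genes of differentiation, were detected in all groups. Their summed level was 1244 to 1415 CPM (counts scaled to a common library size) in control myoblasts. It was 7690 to 9381 CPM in knockout myoblasts and 21256 to 25545 CPM in knockout myotubes. The largest totals over the 18 libraries were Myh3 with 3769082 counts and Des with 3727490, beside 282688 for Myod1 and 22038 for Myf5. Among 7 adipocyte markers, 4 or 5 were at or under 3 counts in every library of a group, Adipoq included, and the list summed to 3.83 to 19.7 CPM. That sum was mostly Pparg, with 9223 counts over all libraries beside 163 for Fabp4, the next of the list. Fibroblast markers, 5 genes, summed to 788 to 839 CPM in control myoblasts and to 5776 to 6835 CPM in control myotubes. Most of that sum was Col1a1, with 1444287 counts over the 18 libraries beside 22151 for Pdgfra, the next of the list. In the overexpressor myotube group, library C stood apart, with a chi-square per degree of freedom of 112 to 118 against the other libraries of its group, where those differed by 22.8. At lower values, overexpressor myoblast library B differed from A and C by 37.3 and 33.0, where those differed by 8.46. Knockout myotube libraries A and C differed by 55.0. Within bulk RNA, fewer cells of a type and less RNA per cell cannot be told apart.

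Levels below are CPM scaled by library size and TMM factor, given as the mean ± SD of 3 libraries or for libraries A, B and C in turn. Differences are log2 fold changes (written log2) from edgeR's quasi-likelihood F test, fitted over 17912 genes. The test reports no standard error (SE). An approximate SE was therefore taken as the absolute log2 fold change divided by the square root of F. A gene rose or fell when its Benjamini-Hochberg adjusted p was under 0.05.

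The pathway did not move as a block in either clone. Against control myoblasts, 11 members rose and 11 fell in the overexpressor, where 20.7% of all genes tested rose and 19.7% fell. The count of members that rose dropped to 7 without control myoblast library B. In knockout myoblasts 14 members rose and 15 fell, against a background of 26.4% and 26.6%. Median differences over the members were -0.03 and -0.04 on the log2 scale, beside 0.02 over all genes in each clone. The clones are compared with the same control libraries, so their values are set side by side.

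In myotubes more of the set was called. Against control, 17 members rose and 14 fell in the overexpressor, beside 26.2% and 30.9% of all genes, with a median of 0.14 on the log2 scale against -0.04 over all genes. Without overexpressor myotube library C the counts were 18 and 11. In the knockout 19 rose and 13 fell, beside 31.0% and 37.0% of all genes, with a median of 0.11 against -0.07. Members that rose and members that fell stood next to each other within single steps of the pathway, as the heat map of all libraries shows.

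**Figure D1:**
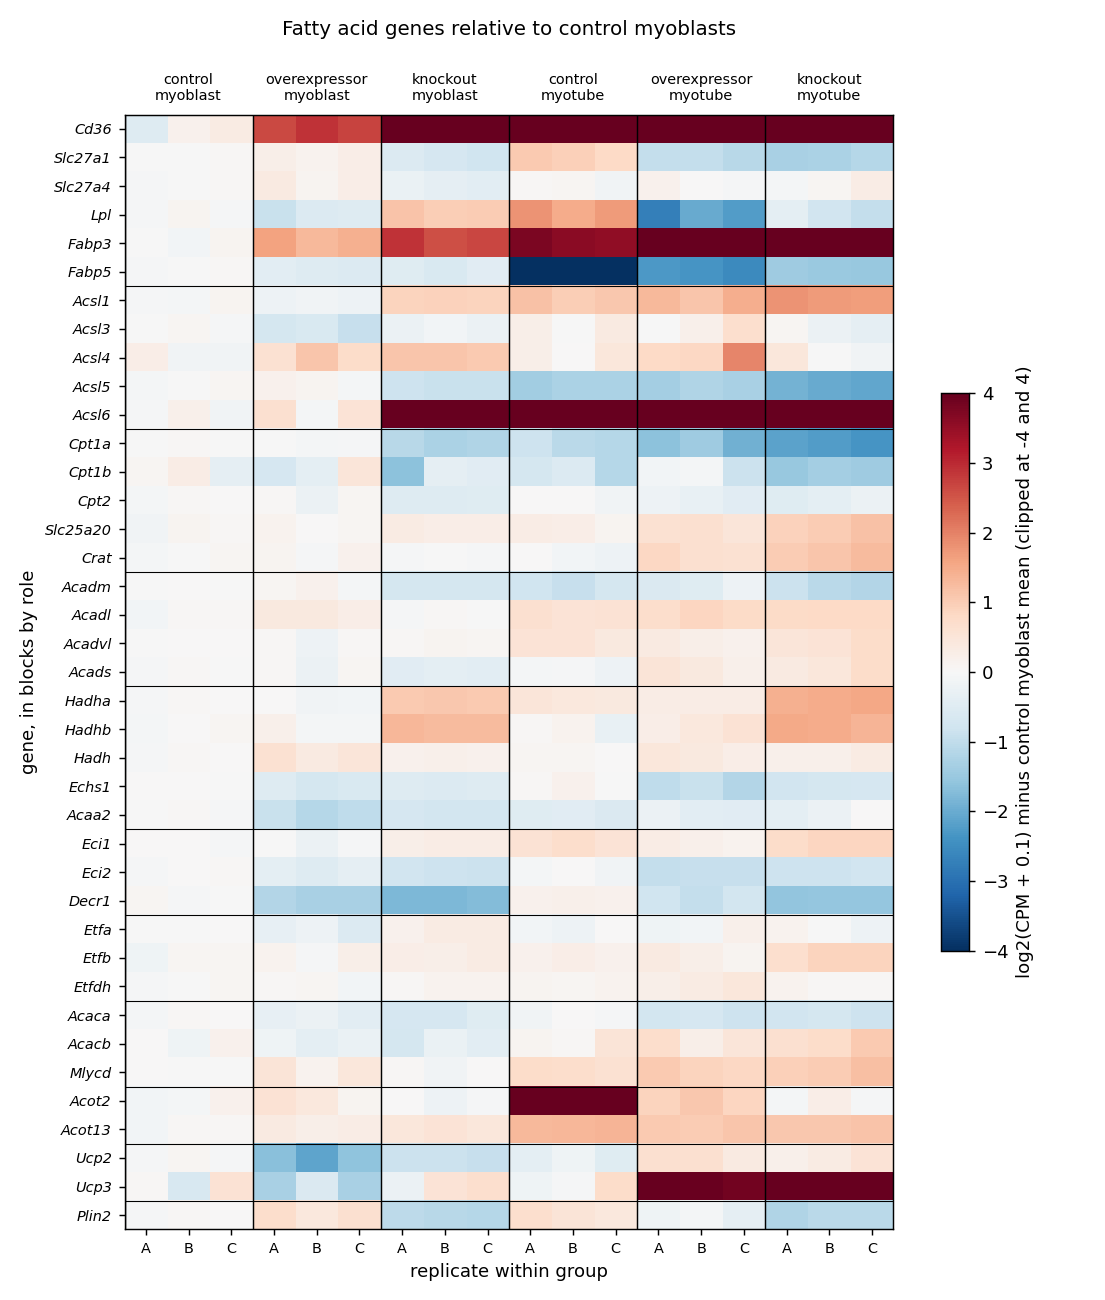
Level of 39 fatty acid genes in each of 18 libraries, as log2(CPM + 0.1) minus the mean of the control myoblast libraries, with colours limited to -4 and 4 and black lines between roles (rows) and groups (columns). Cd36, Fabp3 and Acsl6 are dark red in all myotube groups, Acot2 is dark red in control myotubes, and Ucp3 is dark red in the myotubes of both clones.

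The uptake genes held the widest range. Cd36 (chr5:17781690-17888801, minus strand), the membrane glycoprotein through which muscle takes up long-chain fatty acids, had 0.0936, 0.211 and 0.245 CPM in control myoblasts, or 5 to 11 counts a library. Overexpressor myoblasts had 1.62, 1.92 and 1.69 CPM, and knockout myoblasts had 16.1, 19.2 and 15.9 CPM. The groups did not overlap, and knockout myoblasts stood near the level of control myotubes, at 12.6, 12.4 and 16.9 CPM. Against control myoblasts Cd36 rose in the overexpressor (log2 3.26, SE 0.64, adjusted p = 0.000791) and in the knockout (log2 6.55, SE 0.54, adjusted p = 8.50e-08). Between the clones it was lower in overexpressor than in knockout myoblasts (log2 -3.29, SE 0.40, adjusted p = 4.78e-06).

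In myotubes Cd36 had 54.4, 44.3 and 142 CPM in the overexpressor and 69.6, 49.6 and 54.1 CPM in the knockout. All 6 libraries were above the control myotubes, and library C of the overexpressor was far above the rest of its group. Cd36 rose in overexpressor myotubes by log2 2.52 (SE 0.34, adjusted p = 1.56e-05), a value that came to 1.92 without library C (adjusted p = 4.40e-09). In knockout myotubes it rose by log2 2.05 (SE 0.34, adjusted p = 8.61e-05). The clones overlapped there and their difference did not pass the test (log2 0.48, adjusted p = 0.218), although it did without overexpressor library B (0.77, adjusted p = 0.0363).

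Fabp3, the heart and muscle form of the cytosolic fatty acid binding proteins, was ordered in the same way in myoblasts. It had 0.337, 0.308 and 0.379 CPM in control, 1.24, 0.971 and 1.09 CPM in the overexpressor, and 2.51 to 3.16 CPM in the knockout, with no overlap. The rise was log2 1.69 in the overexpressor (SE 0.20, adjusted p = 1.26e-06) and 3.03 in the knockout (SE 0.18, adjusted p = 8.84e-11). In myotubes Fabp3 reached 5.42 ± 0.399 CPM in control cells, 17.5 ± 1.84 with the overexpressor and 19.7 ± 2.82 with the knockout. Both clones were above control by log2 1.69 (SE 0.12, adjusted p = 1.51e-09) and 1.86 (SE 0.12, adjusted p = 3.60e-10), and they overlapped each other.

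Beside these genes, the summed muscle markers were also above control in both clones at both stages, with no overlap. Myoblasts had 1244 to 1415 CPM of them in control, 2503 to 3109 with the overexpressor and 7690 to 9381 with the knockout. Myotubes had 9224 to 10091, 17373 to 18781 and 21256 to 25545 CPM in that order. The part of these markers in the Cd36 and Fabp3 values was not tested.

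Fabp5, the epidermal form of the binding proteins, went the other way with differentiation. In control cells it dropped from 22.4, 23.1 and 24.1 CPM in myoblasts to 0.625, 1.28 and 1.08 CPM in myotubes (log2 -4.55, SE 0.16, adjusted p = 3.06e-14). Overexpressor myotubes kept 4.62, 4.39 and 3.92 CPM, and knockout myotubes 8.62, 8.24 and 8.11 CPM, so the 3 lines were fully separated. Against control myotubes this was a rise of log2 2.12 in the overexpressor (SE 0.16, adjusted p = 1.55e-09) and 3.07 in the knockout (SE 0.16, adjusted p = 7.90e-12). In myoblasts the gene was lower in the clones, by log2 -0.50 (SE 0.13, adjusted p = 0.00353) and -0.52 (adjusted p = 0.00194).

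Lpl, the lipoprotein lipase that frees fatty acids from circulating triglyceride, was among the largest losses of the set in clone myotubes. Control cells had 12.7, 14.3 and 12.7 CPM as myoblasts and 45.8, 37.2 and 43.6 CPM as myotubes. Overexpressor cells had 7.15, 8.99 and 9.31 CPM and then 1.92, 3.21 and 2.71 CPM. Knockout cells had 29.3, 26.5 and 26.9 CPM and then 9.99, 7.72 and 6.73 CPM. Thus Lpl rose with differentiation in control (log2 1.67, SE 0.16, adjusted p = 3.62e-08) and fell in the overexpressor (log2 -1.69, SE 0.17, adjusted p = 7.56e-08) and the knockout (log2 -1.76, SE 0.16, adjusted p = 3.38e-08).

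No myotube library of a clone overlapped the control for Lpl, and the differences were log2 -4.01 in the overexpressor (SE 0.18, adjusted p = 1.69e-12) and -2.37 in the knockout (SE 0.16, adjusted p = 5.50e-10). In myoblasts the clones lay on opposite sides of control, with log2 -0.64 in the overexpressor (SE 0.16, adjusted p = 0.00332) and 1.06 in the knockout (SE 0.16, adjusted p = 1.48e-05).

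Slc27a1, the muscle fatty acid transport protein FATP-1, shared the turn with differentiation. It had 75.1 ± 1.92 CPM in control myoblasts and 154, 145 and 131 CPM in control myotubes. Overexpressor cells had 87.2 ± 4.24 CPM as myoblasts and 38.6, 38.8 and 35.0 CPM as myotubes, and knockout cells 47.4 ± 4.20 CPM and then 30.6, 31.5 and 33.7 CPM. All myotube libraries of the clones lay under all control myotubes, by log2 -1.93 in the overexpressor (SE 0.08, adjusted p = 3.97e-13) and -2.17 in the knockout (SE 0.08, adjusted p = 9.17e-14). The summed fibroblast markers, mostly Col1a1, were lower in the same libraries. They summed to 319 to 495 CPM in the overexpressor and 1366 to 1599 CPM in the knockout, against 5776 to 6835 CPM in control. In myoblasts the sum was also under control (788 to 839 CPM) in the overexpressor (42.0 to 45.8) and knockout (388 to 613). There Lpl was lower in the overexpressor and higher in the knockout, while Slc27a1 means were higher in the overexpressor and lower in the knockout. The part of these markers in the Lpl and Slc27a1 values was not tested. Slc27a4, another transport protein of this family, differed little in myotubes, with means of 67.1, 69.4 and 72.6 CPM in control, overexpressor and knockout. Its rise in overexpressor myoblasts (log2 0.25, SE 0.09, adjusted p = 0.0399) was lost without any 1 of the control libraries (adjusted p = 0.0580 to 0.113) and without overexpressor libraries A (0.165) or C (0.0898).

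**Figure D2:**
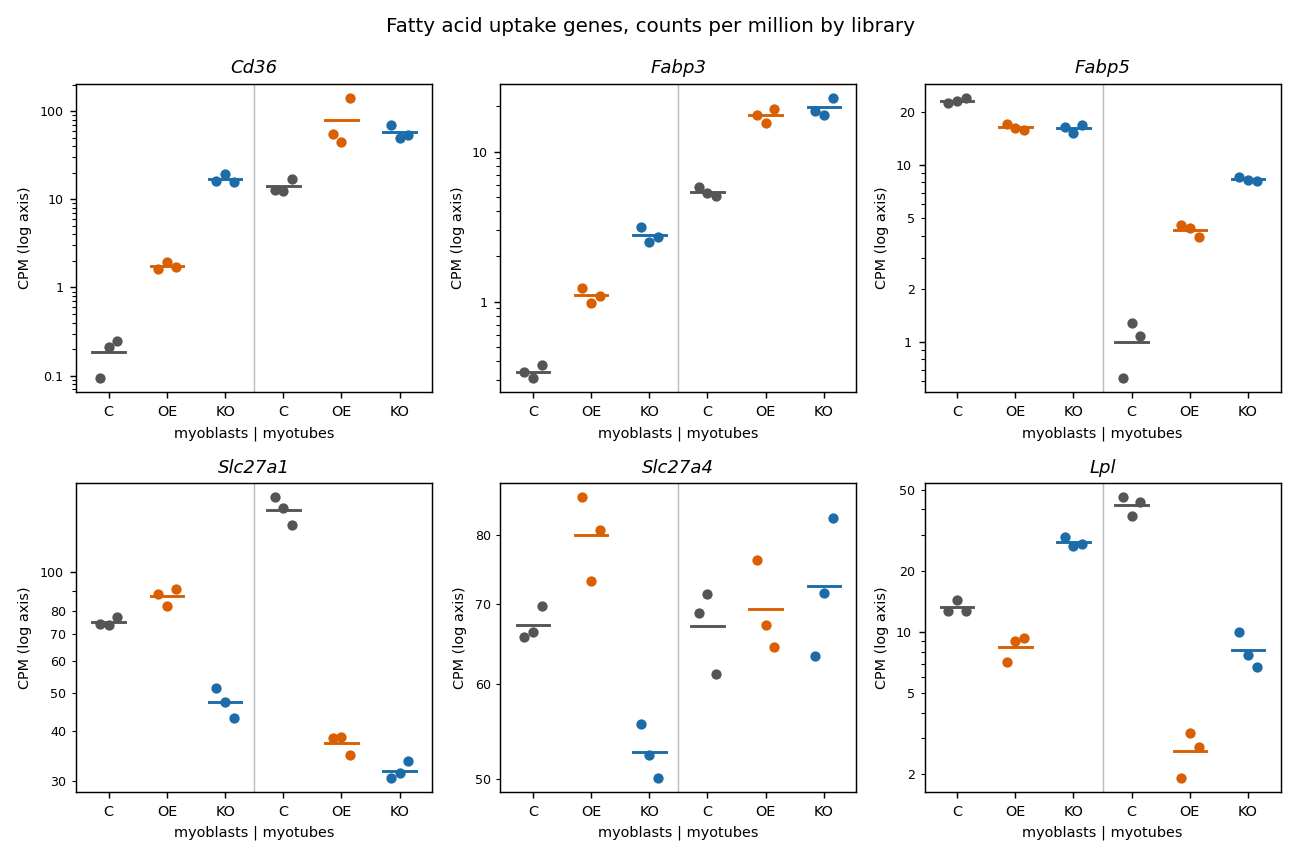
Level of 6 uptake genes in CPM on a log axis, with 1 point per library and a bar at the group mean, for control (C), overexpressor (OE) and knockout (KO) cells as myoblasts (left) and myotubes (right). Cd36 and Fabp3 are above control in both clones at both stages, and Lpl and Slc27a1 are above their myoblast level in control myotubes and under it in the myotubes of both clones.

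Activation to acyl-CoA is the task of 5 synthetases in the set. Acsl6, a form known from brain, red cells and muscle, had 0.243, 0.308 and 0.223 CPM in control myoblasts and 0.459, 0.237 and 0.416 CPM in the overexpressor, which overlapped (log2 0.52, adjusted p = 0.216). Knockout myoblasts had 7.79, 11.6 and 8.56 CPM, a rise of log2 5.16 (SE 0.21, adjusted p = 6.72e-13) over control libraries with 10 to 16 counts. Here too the summed muscle markers given beside Cd36 stood higher in the same libraries, and their part was not tested. In myotubes Acsl6 reached 37.9 ± 4.08 CPM (control), 79.6 ± 9.07 CPM (overexpressor) and 48.0 ± 2.23 CPM (knockout). The overexpressor exceeded control by log2 1.07 (SE 0.13, adjusted p = 1.45e-06). The knockout exceeded it by 0.34 (adjusted p = 0.0286), a call lost without control library A (adjusted p = 0.0505) or B (0.130) or knockout library A (0.0761).

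Acsl1, the main synthetase of oxidative tissues, was higher in the knockout at both stages. Knockout myoblasts had 31.4 ± 0.357 CPM against 16.9 ± 1.22 in control (log2 0.90, SE 0.08, adjusted p = 4.40e-08), and overexpressor myoblasts had 14.8 ± 0.458. Knockout myotubes had 55.7 ± 2.34 CPM, overexpressor myotubes 41.4 ± 4.86 and control myotubes 35.7 ± 2.10. Acsl5, a synthetase of mitochondria and endoplasmic reticulum, was lower in the knockout, with 66.1 ± 1.99 CPM in myoblasts against 121 ± 6.09 in control (log2 -0.87, SE 0.07, adjusted p = 8.16e-09) and 30.2 ± 2.01 in myotubes against 48.4 ± 2.48 (log2 -0.68, SE 0.07, adjusted p = 1.52e-07). Between the clones it was higher in the overexpressor, by log2 0.93 in myoblasts (SE 0.07, adjusted p = 2.74e-09) and 0.70 in myotubes (SE 0.07, adjusted p = 2.37e-07).

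Acsl4, which prefers arachidonic acid, rose in myoblasts of the knockout (log2 1.08, SE 0.27, adjusted p = 0.00334). Its rise in the overexpressor (log2 0.82, SE 0.27, adjusted p = 0.0241) was lost without control library B (adjusted p = 0.0826) or C (0.0835) or overexpressor library B (0.102). Overexpressor myotubes had 130, 132 and 287 CPM against 88.5, 75.0 and 103 in control (log2 1.04, SE 0.27, adjusted p = 0.00381), and without the high library C the difference was 0.66 (adjusted p = 0.00455). Acsl3, a synthetase of the endoplasmic reticulum and lipid droplets, fell in overexpressor myoblasts, with 104 ± 11.2 CPM against 175 ± 7.52 (log2 -0.75, SE 0.15, adjusted p = 0.000737).

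At the carnitine shuttle, Cpt1a fell in the knockout at both stages and in overexpressor myotubes. Carnitine palmitoyltransferase 1 makes acylcarnitine at the outer membrane, with Cpt1a the liver form and Cpt1b the muscle form. Cpt1a had 147, 154 and 146 CPM in control myoblasts, 146, 140 and 143 in the overexpressor and 68.6, 62.1 and 64.7 in the knockout. Only the knockout libraries stood apart, with log2 -1.19 (SE 0.10, adjusted p = 1.42e-08) beside -0.06 in the overexpressor (SE 0.10, adjusted p = 0.700). In myotubes the order was 84.3, 70.0 and 68.0 CPM in control, 47.6, 55.3 and 39.6 in the overexpressor and 33.6, 31.8 and 28.8 in the knockout, with no overlap. Both clones were under control, by log2 -0.64 (SE 0.10, adjusted p = 2.49e-05) and -1.24 (SE 0.10, adjusted p = 6.18e-09), and the overexpressor was above the knockout by 0.60 (SE 0.10, adjusted p = 7.50e-05).

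Cpt1b (chr15:89416405-89425863, minus strand) was close to the count floor, with 1 to 21 counts in any library. No contrast of a clone with control passed the test for it, with log2 -0.19 (SE 0.52, adjusted p = 0.811) in overexpressor myoblasts, -1.07 (SE 0.55, adjusted p = 0.116) in knockout myoblasts, 0.80 (SE 0.57, adjusted p = 0.248) in overexpressor myotubes and -1.45 (SE 0.77, adjusted p = 0.103) in knockout myotubes. Of its 3372 exon bases, 2744 are shared on the same strand with an annotated readthrough gene, Gm44502, so its counts are uncertain. Per kilobase of exon, control myoblasts held 19.5 CPM of Cpt1a and 0.0855 CPM of Cpt1b, and control myotubes 9.70 and 0.0361.

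The remaining shuttle genes were expressed in all groups. Crat, carnitine acetyltransferase, did not differ between lines in myoblasts, with means of 80.6, 85.1 and 78.5 CPM in control, overexpressor and knockout. Myotubes had 80.7, 74.8 and 70.5 CPM in control, 142, 125 and 122 in the overexpressor and 163, 174 and 193 in the knockout, with 3 separate groups. Crat rose against control myotubes by log2 0.78 (SE 0.08, adjusted p = 1.01e-07) in the overexpressor and 1.23 (SE 0.08, adjusted p = 2.06e-10) in the knockout. Slc25a20, the carnitine-acylcarnitine carrier of the inner membrane, had 31.0 ± 2.11 CPM in control myotubes, 39.4 ± 2.41 CPM in those of the overexpressor and 54.7 ± 5.01 CPM in those of the knockout (log2 0.82, SE 0.08, adjusted p = 8.83e-08). Cpt2, which hands the acyl group back to CoA inside the mitochondrion, fell in knockout myoblasts, with 32.7 ± 0.650 CPM against 46.4 ± 1.89 (log2 -0.50, adjusted p = 7.95e-05). Its smaller falls in myotubes of both clones did not hold under the size factors of DESeq2 (overexpressor adjusted p = 0.167, knockout 0.0748), and that of the overexpressor also without library C (log2 -0.11, adjusted p = 0.331).

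Acyl-CoA dehydrogenases open each round of the cycle and are split by chain length. Acadm, for medium chains, fell in knockout myoblasts from 113, 116 and 114 CPM in control to 70.4, 69.5 and 70.1 CPM (log2 -0.71, SE 0.09, adjusted p = 4.16e-06). The overexpressor had 120, 129 and 108 CPM, around the control values (log2 0.06, SE 0.09, adjusted p = 0.682). In myotubes it rose in the overexpressor (log2 0.39, SE 0.09, adjusted p = 0.00156) and had log2 -0.22 in the knockout (SE 0.09, adjusted p = 0.0505), which passed without control library B (-0.28, adjusted p = 0.0259) or knockout library A (-0.30, adjusted p = 0.0126). Acads, for short chains, had 70.6 ± 3.85 CPM in control myotubes, 99.2 ± 11.2 in the overexpressor and 110 ± 15.7 in the knockout. Both clones were above control, by log2 0.49 (SE 0.10, adjusted p = 0.000377) and 0.64 (SE 0.10, adjusted p = 1.86e-05).

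Acadl, for long chains, differed from control by at most 0.35 on the log2 scale, in overexpressor myoblasts (177 ± 10.3 against 138 CPM, SE 0.06, adjusted p = 0.000143). Acadvl, for very long chains, had 112, 110 and 118 CPM in control, overexpressor and knockout myoblasts, and 159, 134 and 168 in myotubes. Its fall in overexpressor myotubes (log2 -0.24, adjusted p = 0.0150) was lost without library C (-0.09, adjusted p = 0.388) and without control library A (-0.22, adjusted p = 0.0518) or B (-0.21, adjusted p = 0.0610). Acadvl shares 1151 exon bases with Dvl2 on the opposite strand, and strand use in counting is not given in the sources used here.

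After dehydrogenation, the trifunctional protein genes were higher in the knockout than in the overexpressor at both stages. Hadha and Hadhb encode the subunits of the mitochondrial trifunctional protein, which hydrates, oxidises and cleaves long chains. Hadha had 234, 249 and 244 CPM in control myoblasts, 245, 218 and 224 in the overexpressor and 496, 510 and 502 in the knockout. In myotubes it had 336, 324 and 319 CPM in control, 299, 299 and 298 in the overexpressor and 649, 677 and 701 in the knockout. The knockout stood above every other library at its stage. The rise was log2 1.05 in myoblasts (SE 0.05, adjusted p = 1.58e-11) and 1.05 in myotubes (SE 0.05, adjusted p = 9.79e-12).

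In the overexpressor the Hadha values were log2 -0.08 in myoblasts (SE 0.05, adjusted p = 0.256) and -0.13 in myotubes (SE 0.05, adjusted p = 0.0472), and the latter turned to 0.02 (adjusted p = 0.766) when libraries were scaled by their totals. It was also lost on leaving out any 1 of the 6 myotube libraries of these groups (adjusted p = 0.0538 to 0.770). Directly compared, the overexpressor was under the knockout by log2 -1.13 in myoblasts (SE 0.05, adjusted p = 5.12e-12) and -1.18 in myotubes (SE 0.05, adjusted p = 1.08e-11).

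Hadhb moved alongside, from 13.0, 13.8 and 14.6 CPM in control myoblasts to 34.9, 33.4 and 33.3 in the knockout (log2 1.30, SE 0.11, adjusted p = 1.55e-08). Knockout myotubes had 35.3 to 39.6 CPM against 14.1, 15.3 and 11.3 in control (log2 1.49, SE 0.11, adjusted p = 1.55e-09). The overexpressor overlapped control in myoblasts, at 15.9, 13.1 and 13.1 CPM, and exceeded it in myotubes, at 16.7, 18.5 and 20.7 CPM (log2 0.46, SE 0.11, adjusted p = 0.00148). Per kilobase of exon, Hadha had 27.8 CPM and Hadhb 2.09 CPM in control myoblasts.

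The pair lies head to head on chromosome 5, with Hadha on the minus strand (chr5:30118304-30155162) and Hadhb on the plus strand (chr5:30155248-30184593), and 85 bases between the annotated gene ends. Their RefSeq start windows share 228 bases, so the Hadhb window below also covers most of that of Hadha. It is shown because these genes moved together in the knockout, and it runs over chr5:30155003-30155302 on the plus strand of GRCm38.p6, from 250 bases before the start to 50 after. Capitals mark the 4 matches to GGGCGG on either strand, where CCGCCC is the reverse strand reading. GC content of the window is 60.7%.
Hadhb: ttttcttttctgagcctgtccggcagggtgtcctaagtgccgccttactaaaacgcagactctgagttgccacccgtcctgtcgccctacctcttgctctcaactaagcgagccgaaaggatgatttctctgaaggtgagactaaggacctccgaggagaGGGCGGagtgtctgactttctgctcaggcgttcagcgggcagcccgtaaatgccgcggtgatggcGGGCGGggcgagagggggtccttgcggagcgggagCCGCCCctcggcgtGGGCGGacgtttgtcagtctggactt

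The other enzymes of these steps differed in direction, with Echs1 lower and Hadh higher in both clones at both stages. Echs1, the short-chain enoyl-CoA hydratase, had 120 ± 1.30 CPM in control myoblasts, 78.5 ± 5.08 in the overexpressor and 83.3 ± 1.30 in the knockout, and in myotubes 124, 137 and 119 CPM in control, 59.6, 64.2 and 52.9 in the overexpressor and 70.1, 73.4 and 75.6 in the knockout. No clone library reached a control library. In myotubes it was lower by log2 -1.10 (SE 0.07, adjusted p = 3.05e-10) and -0.80 (SE 0.07, adjusted p = 2.11e-08). Acaa2, the last thiolase, was lower in clone myoblasts, with 64.4 ± 6.01 and 79.3 ± 1.95 CPM against 130 ± 4.71 (log2 -1.01, SE 0.09, adjusted p = 6.88e-08, for the overexpressor and -0.71, SE 0.09, adjusted p = 3.52e-06, for the knockout). In myotubes it had 91.3 ± 3.78, 101 ± 9.10 and 114 ± 16.8 CPM in control, overexpressor and knockout. It rose in knockout myotubes (log2 0.31, adjusted p = 0.00585), a call lost without knockout library C (0.19, adjusted p = 0.0529). Hadh, the short-chain 3-hydroxyacyl-CoA dehydrogenase, rose by at most 0.48 on the log2 scale, in overexpressor myoblasts (SE 0.07, adjusted p = 1.07e-05). In the knockout Hadh rose by 0.18 in myoblasts (adjusted p = 0.0264) and 0.19 in myotubes (adjusted p = 0.0148). The former was lost without control library A or C or knockout library B or C (adjusted p = 0.0518 to 0.0920), and the latter without control or knockout library C (0.0511 and 0.0702). The myoblast call also did not pass with DESeq2 size factors (adjusted p = 0.0941), the Wald test of DESeq2 (0.115) or no filter on low counts (0.0605).

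Enzymes for unsaturated fatty acids were mostly lower in the clones. Decr1, the mitochondrial dienoyl-CoA reductase, had 57.6, 52.7 and 53.6 CPM in control myoblasts, 24.1, 22.4 and 22.3 in the overexpressor and 15.5, 15.8 and 16.2 in the knockout. In myotubes the values were 62.1, 63.0 and 61.2, then 31.1, 28.1 and 32.9, and then 18.1, 18.5 and 18.8 CPM. The lines kept this order at both stages with no overlap. In myoblasts the overexpressor was under control by log2 -1.25 (SE 0.07, adjusted p = 4.25e-11) and the knockout by -1.79 (SE 0.07, adjusted p = 3.03e-13). In myotubes the overexpressor was under it by -1.02 (SE 0.07, adjusted p = 2.96e-10) and the knockout by -1.75 (SE 0.07, adjusted p = 2.35e-13).

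Eci2, an enoyl-CoA isomerase, was also lower in every contrast of a clone with control, from 55.8 ± 1.62 CPM in control to 41.8 ± 2.36 and 31.6 ± 1.13 in overexpressor and knockout myoblasts, and from the range of 50.4 to 55.8 CPM in control myotubes down to 29.1 ± 0.107 and 31.9 ± 0.892 there (smallest difference log2 -0.42, SE 0.06, adjusted p = 1.99e-05). Eci1, the other mitochondrial isomerase, parted the clones. It rose in knockout myoblasts (39.7 ± 0.817 against 32.9 ± 1.03 CPM, log2 0.27, adjusted p = 0.00359) and fell in overexpressor myotubes (38.0 ± 2.37 against 50.2 ± 2.86 CPM, log2 -0.40, SE 0.07, adjusted p = 9.40e-05).

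The electron transfer genes differed from control by at most 0.63 on the log2 scale. Etfa and Etfb encode the flavoprotein subunits and Etfdh the enzyme that passes the electrons on to ubiquinone. Etfb reached 25.6 ± 2.34 CPM in knockout myotubes against 16.6 ± 0.618 in control (log2 0.63, adjusted p = 1.71e-05). Its counts are less certain, since its overlaps with Gm45233 and Mir7051 on the same strand come to 678 exon bases. Etfa had 68.4 ± 8.10 CPM in overexpressor and 86.8 ± 0.501 in control myoblasts (log2 -0.34, SE 0.10, adjusted p = 0.0129), a call lost without overexpressor library C (adjusted p = 0.0800). In knockout myoblasts Etfa and Etfb each rose by log2 0.28 (adjusted p = 0.0328 and 0.0224). The Etfa call was lost without any 1 of the control libraries or knockout library B or C (adjusted p = 0.0686 to 0.0946), and the Etfb call without control library A (0.124) or knockout library C (0.0737). Etfdh was between 57.2 and 72.5 CPM in all group means.

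Malonyl-CoA, the inhibitor of the entry step, is made by the carboxylases Acaca and Acacb and removed by the decarboxylase Mlycd. Acaca fell in both clones at both stages. Control had 47.7, 51.1 and 51.0 CPM in myoblasts and 45.6, 50.4 and 48.2 in myotubes. The overexpressor had 39.8, 42.3 and 37.5, then 29.9, 31.0 and 28.3, and the knockout 31.3, 31.2 and 35.3, then 29.0, 30.4 and 27.9. No clone library reached a control library of its stage. In myotubes the differences were log2 -0.69 (SE 0.07, adjusted p = 1.42e-07) and -0.72 (SE 0.07, adjusted p = 6.80e-08). Mlycd was higher in clone myotubes, with 27.3 ± 2.19 CPM in the overexpressor and 29.9 ± 2.57 in the knockout against 23.0 ± 1.16 in control. The overexpressor call (log2 0.25, adjusted p = 0.0354) was lost without control library B (adjusted p = 0.0583) or C (0.123) and without overexpressor library A (0.149) or B (0.0515). Acacb, the mitochondrial carboxylase, was low, at 0.729 to 1.91 CPM in the group means.

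Thioesterases release the acyl group from CoA. Acot2, the mitochondrial long-chain form, was high in control myotubes and low elsewhere. Control myoblasts had 4.59, 4.61 and 5.61 CPM and control myotubes 83.6, 80.5 and 79.0. Overexpressor myotubes had 9.24, 10.4 and 8.97 CPM and knockout myotubes 4.68, 5.99 and 4.79, so the level of control myotubes was not approached in any clone library. In the overexpressor this was log2 -3.09 (SE 0.12, adjusted p = 3.47e-13) and in the knockout -3.97 (SE 0.13, adjusted p = 2.40e-14). With differentiation Acot2 rose by log2 4.04 in control (SE 0.13, adjusted p = 1.22e-14) and by 0.57 in the overexpressor (adjusted p = 0.000425), and in the knockout it had log2 0.14 (adjusted p = 0.321).

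The fibroblast marker sum given beside Lpl, mostly Col1a1, stood lower in these clone libraries too, and its part here was not tested. Acot1 is a close paralog that could share reads with Acot2, and its own level went from 3.28 ± 0.308 CPM in control myoblasts to 0.419 ± 0.178 in control myotubes. Acot13, a small thioesterase of the mitochondrial surface, differed far less, with 46.2 ± 0.800 CPM in control myotubes, 38.5 ± 0.957 in the overexpressor and 39.7 ± 0.817 in the knockout. Under the size factors of DESeq2 its falls in myotubes no longer passed (adjusted p = 0.0669, then 0.284).

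The start window of Acot2 from RefSeq is printed because the gene rose in control myotubes alone by more than log2 4. It covers chr12:83987611-83987910 on the plus strand of GRCm38.p6. Capitals mark CAGCTG, an E-box sequence of the kind that myogenic helix-loop-helix factors are known to bind, at positions -25 to -20 from the start.
Acot2: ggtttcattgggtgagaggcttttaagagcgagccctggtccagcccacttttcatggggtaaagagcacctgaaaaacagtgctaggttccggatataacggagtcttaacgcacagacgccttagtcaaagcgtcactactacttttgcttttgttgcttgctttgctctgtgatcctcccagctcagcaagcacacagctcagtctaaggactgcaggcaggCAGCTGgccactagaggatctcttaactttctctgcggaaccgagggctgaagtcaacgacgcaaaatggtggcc

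Uncoupling proteins of the set turned with differentiation in the clones. Ucp2 had 144, 156 and 143 CPM in control myoblasts, 46.2, 34.2 and 48.8 in the overexpressor and 80.9, 81.4 and 78.6 in the knockout, 3 separate groups. In myotubes the order was inverted, with 112, 131 and 106 CPM in control, 230, 232 and 189 in the overexpressor and 171, 185 and 216 in the knockout. In myoblasts Ucp2 fell in the overexpressor (log2 -1.78, SE 0.12, adjusted p = 2.20e-09) and the knockout (log2 -0.88, SE 0.12, adjusted p = 7.42e-06). In myotubes it rose in the overexpressor (log2 0.90, SE 0.12, adjusted p = 4.36e-06) and the knockout (log2 0.71, SE 0.12, adjusted p = 4.58e-05), where the clones overlapped.

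Ucp3, the form of skeletal muscle, was near the floor in myoblasts and in control myotubes and rose in the myotubes of the clones. Control myotubes had 0.114, 0.137 and 0.307 CPM, or 6 to 17 counts. Overexpressor myotubes had 3.83, 3.64 and 3.46 CPM and knockout myotubes 4.68, 4.13 and 4.58. All 6 clone libraries lay above all control libraries, by log2 4.25 (SE 0.36, adjusted p = 1.29e-08) and 4.54 (SE 0.37, adjusted p = 4.37e-09). Without control myotube library C, the highest of its group, these were 4.85 (adjusted p = 5.68e-08) and 5.14 (adjusted p = 2.29e-08). The summed muscle markers given beside Cd36 were also higher in these clone myotubes than in control, and their part in the Ucp3 values was not tested. Overexpressor myoblasts had 0, 3 and 0 counts, so the gene was at least 52.6-fold higher in overexpressor myotubes than in myoblasts, taking 3 counts a library as the limit. The call of a lower level in overexpressor than control myoblasts (log2 -2.72, adjusted p = 0.0167) was lost without overexpressor library A (-2.13, adjusted p = 0.0749), without overexpressor library C (-2.23, adjusted p = 0.0624) and without control library C (-2.17, adjusted p = 0.0885), and it was -6.11 without overexpressor library B.

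These genes are neighbours on chromosome 7, with Ucp3 (chr7:100472990-100486432) ending 6904 bases before Ucp2 (chr7:100493337-100502020) begins, both on the plus strand. Their RefSeq windows are shown for that reason and run over chr7:100472741-100473040 and chr7:100493108-100493407 of GRCm38.p6. Capitals mark CAGCTG, at -40 to -35 in the Ucp3 window and at -225 to -220 in the Ucp2 window.
Ucp3: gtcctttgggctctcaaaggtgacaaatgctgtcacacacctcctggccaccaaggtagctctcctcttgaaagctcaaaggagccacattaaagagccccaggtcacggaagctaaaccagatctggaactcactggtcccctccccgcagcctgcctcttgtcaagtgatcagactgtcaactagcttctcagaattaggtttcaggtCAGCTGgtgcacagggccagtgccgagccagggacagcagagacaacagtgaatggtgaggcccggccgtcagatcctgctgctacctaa
Ucp2: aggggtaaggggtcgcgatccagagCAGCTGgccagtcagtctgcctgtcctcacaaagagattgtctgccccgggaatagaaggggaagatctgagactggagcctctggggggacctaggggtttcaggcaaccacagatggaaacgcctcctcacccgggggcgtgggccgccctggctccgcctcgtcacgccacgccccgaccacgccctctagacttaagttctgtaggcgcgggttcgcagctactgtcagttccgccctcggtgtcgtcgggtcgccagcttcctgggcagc

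**Figure D3:**
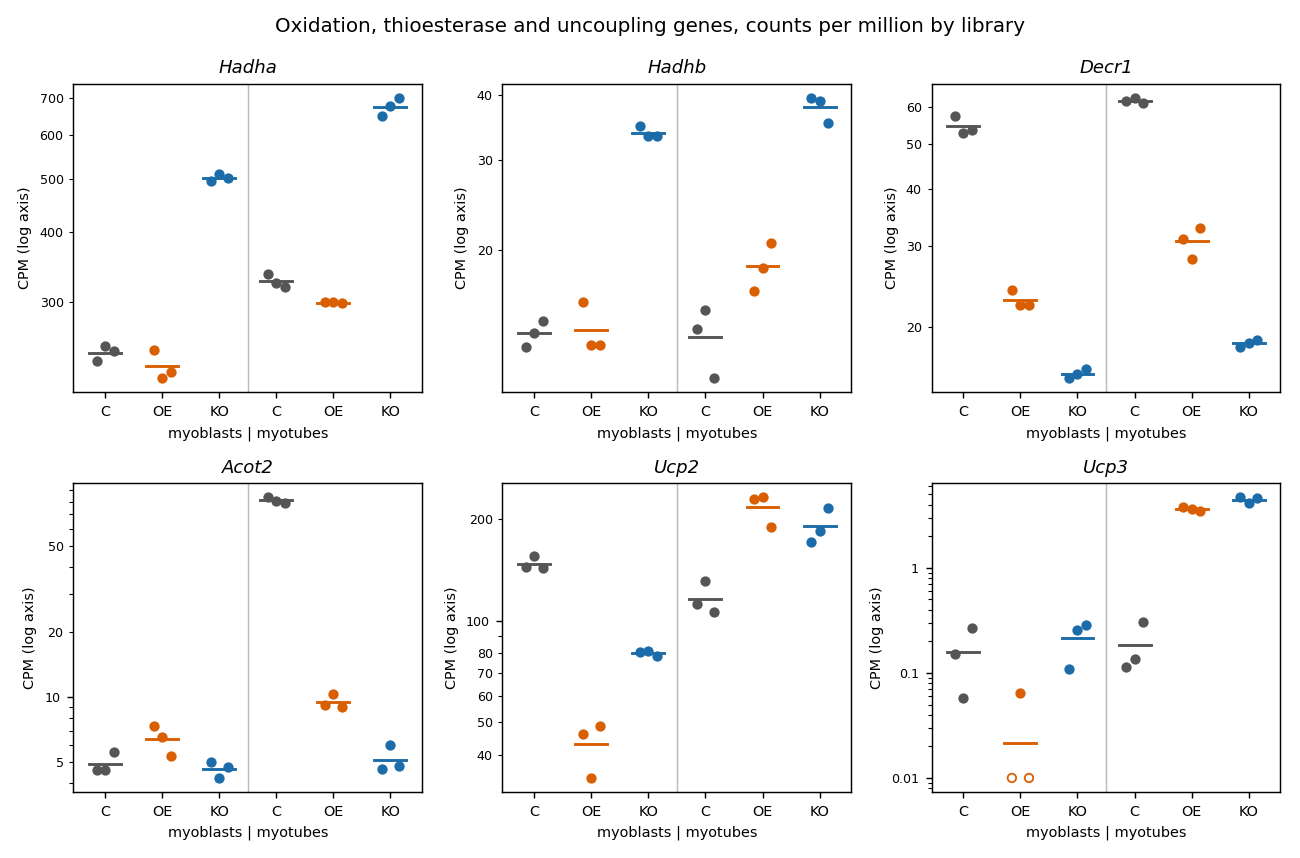
Level of 6 genes of oxidation, thioester hydrolysis and uncoupling in CPM on a log axis, with 1 point per library and a bar at the group mean, for control (C), overexpressor (OE) and knockout (KO) cells. Counts of 0 are drawn as open points at 0.01 CPM. Hadha and Hadhb are high in the knockout at both stages, Decr1 is ordered control, overexpressor, knockout, Acot2 is high in control myotubes, and Ucp3 is above 3 CPM in clone myotubes.

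Plin2, the lipid droplet coat protein found in most cells, separated all lines at both stages. Myoblasts had 139, 149 and 146 CPM in control, 236, 193 and 224 in the overexpressor and 69.4, 67.2 and 66.0 in the knockout. Myotubes had 228, 208 and 194 CPM in control, 128, 136 and 113 in the overexpressor and 62.2, 68.6 and 69.0 in the knockout. The knockout was lowest each time, by log2 -1.10 (SE 0.08, adjusted p = 3.25e-09) and -1.66 (SE 0.08, adjusted p = 8.70e-12) against control. The overexpressor was above control in myoblasts (log2 0.59, SE 0.08, adjusted p = 1.26e-05) and under it in myotubes (log2 -0.74, SE 0.08, adjusted p = 4.20e-07).

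**Figure D4:**
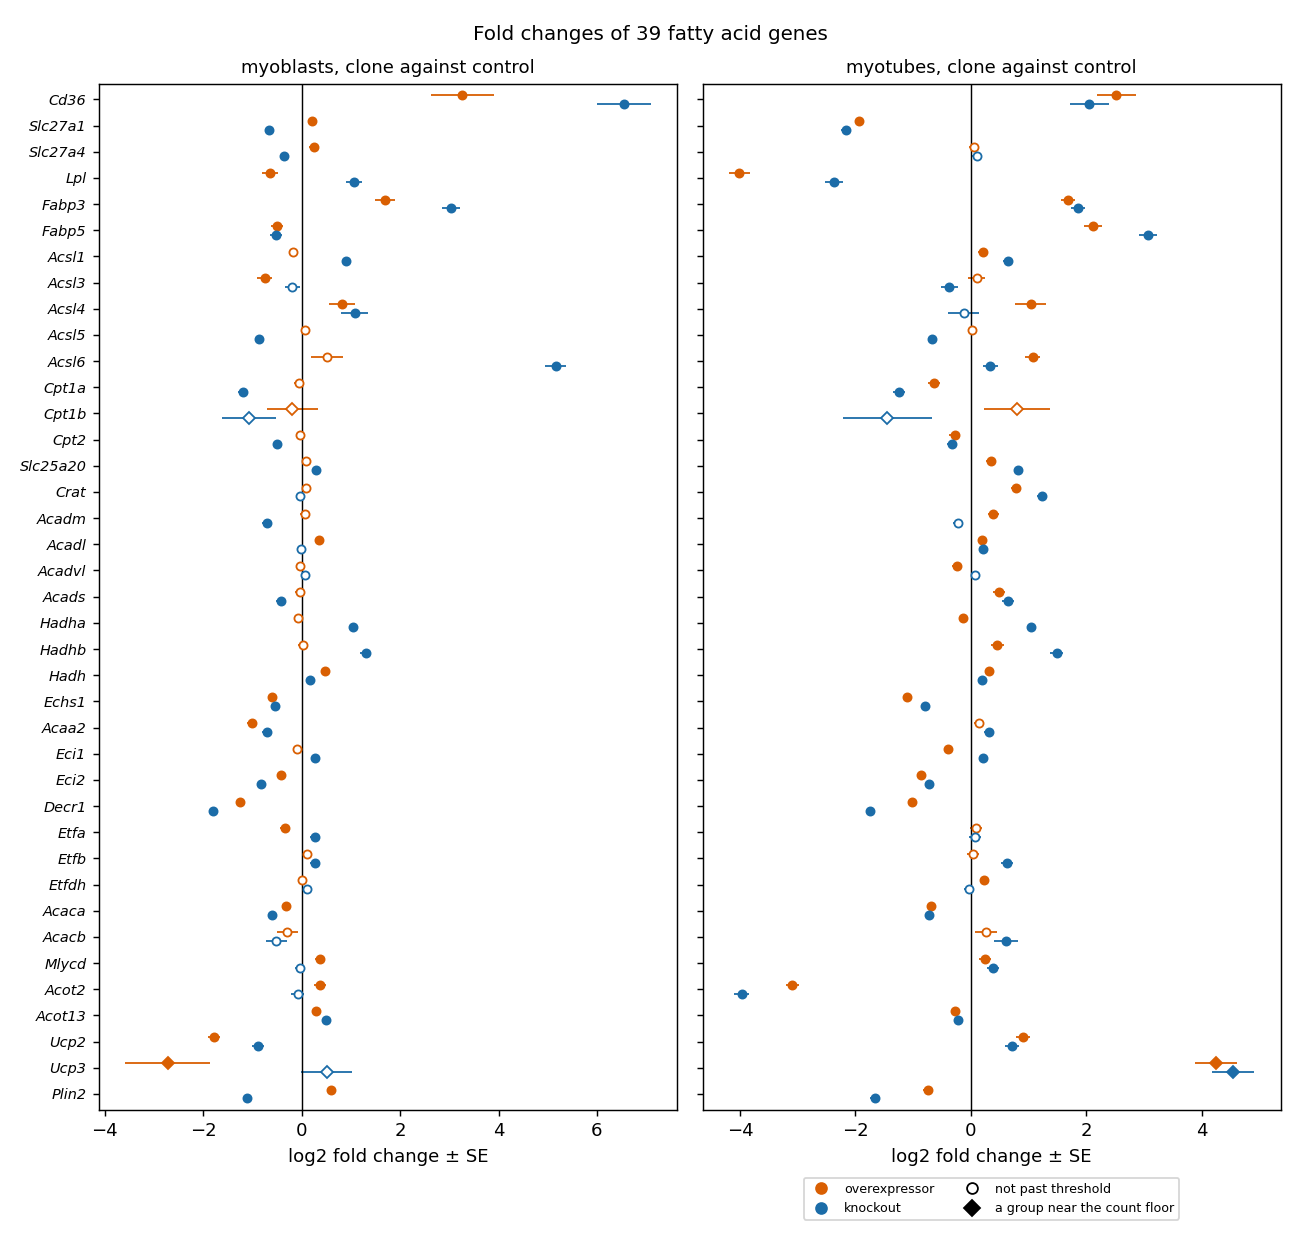
Log2 fold change ± SE against control of 39 fatty acid genes in myoblasts (left) and myotubes (right), with filled points for adjusted p under 0.05. Diamonds mark Cpt1b and Ucp3, which are near the count floor. Cd36 and Acsl6, drawn as circles, also had few counts in control myoblasts (5 to 11 and 10 to 16 a library). Cd36, Fabp3 and, in the knockout, Acsl6 lie far right in myoblasts, and in myotubes Lpl, Acot2 and Slc27a1 lie far left and Ucp3 far right in both clones.

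Differentiation itself was compared within each line, where the contrasts share no library. In control cells 16 members rose and 6 fell from myoblasts to myotubes, beside 33.9% and 28.8% of all genes, with a median of 0.20 on the log2 scale against 0.07 over all genes. The overexpressor had 23 and 11, beside 29.8% and 33.0%, with medians of 0.38 and -0.02. The knockout had 20 and 9, beside 29.8% and 35.6%, with medians of 0.22 and -0.08. Scaled by library totals, the median over the members in control cells was -0.04 and that over all genes -0.17, so the direction of the small changes in control depends on the scaling. With that scaling 17 members fell in control and 14 in the knockout.

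Rises in all 3 lines were found for 12 members (30.8%, beside 14.6% of all genes tested): Cd36, Fabp3, Acsl1, Acsl6, Slc25a20, Acadl, Acadvl, Hadha, Eci1, Decr1, Mlycd and Acot13. In control cells Acsl6 rose by log2 7.18 (SE 0.21, adjusted p = 3.40e-15), Cd36 by 6.26 (SE 0.54, adjusted p = 8.91e-08) and Fabp3 by 3.99 (SE 0.17, adjusted p = 4.88e-13). In the overexpressor Acsl6 rose by 7.73 (SE 0.20, adjusted p = 1.12e-15) and Cd36 by 5.53 (SE 0.42, adjusted p = 1.64e-08), the latter 4.87 without myotube library C. In the knockout, whose myoblasts started higher, Acsl6 rose by 2.36 (SE 0.14, adjusted p = 1.29e-10) and Cd36 by 1.76 (SE 0.33, adjusted p = 0.000344). The control calls of Slc25a20 (log2 0.23) and Decr1 (log2 0.18) were lost with library totals (-0.02 and -0.06) and on leaving out some of the libraries. Those were control myoblast library A and myotube libraries A and B for Slc25a20 (adjusted p = 0.0697 to 0.134), and myoblast libraries B and C and myotube library B for Decr1 (0.0580 to 0.0882). Library totals also ended the call of Decr1 in the knockout (0.05).

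The 4 members Fabp5, Acsl5, Cpt1a and Acadm fell in all 3 lines (10.3%, beside 14.7% of all genes), though for Acadm in the knockout not with DESeq2 size factors (adjusted p = 0.0534). Cpt1a fell by log2 -1.01 in control (SE 0.10, adjusted p = 7.54e-08), -1.59 in the overexpressor (SE 0.10, adjusted p = 1.48e-10) and -1.05 in the knockout (SE 0.10, adjusted p = 7.04e-08). Entry and activation genes did not move 1 way, as Acsl1 and Acsl6 rose where Acsl5 and Cpt1a fell.

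Opposite directions between control and both clones were seen for 4 members (10.3%, beside 2.65% of all genes). Slc27a1 and Lpl rose in control and fell in the clones, and Acaa2 and Ucp2 fell in control and rose in the clones. For Ucp2 the values were log2 -0.34 in control (SE 0.12, adjusted p = 0.0187), 2.33 in the overexpressor (SE 0.12, adjusted p = 2.07e-11) and 1.25 in the knockout (SE 0.12, adjusted p = 9.23e-08), and the control call was lost without control myoblast library B (adjusted p = 0.0661) or control myotube library A (0.0609) or C (0.0846). Acaa2 had log2 -0.51 (SE 0.09, adjusted p = 0.000107), 0.64 (SE 0.09, adjusted p = 7.21e-06) and 0.52 (adjusted p = 9.59e-05) in the same order.

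The difference between responses was tested as an interaction. For the overexpressor, 10 members had a higher and 10 a lower response than control, beside 16.6% and 22.3% of all genes. Without overexpressor myotube library C the counts were 14 and 9. For the knockout, 13 were higher and 10 lower, beside 20.2% and 29.9%. The most negative values were log2 -3.47 for Acot2 (SE 0.17, adjusted p = 2.63e-11) and -3.37 for Lpl (SE 0.23, adjusted p = 2.30e-09) in the overexpressor, and -4.82 for Acsl6 (SE 0.26, adjusted p = 7.18e-11) and -4.50 for Cd36 (SE 0.67, adjusted p = 6.86e-05) in the knockout. Ucp3 had the highest, at 6.96 (SE 0.89, adjusted p = 5.28e-06) and 4.03 (SE 0.69, adjusted p = 0.000108), where the former is fitted against myoblasts at the count floor and is no bound. It was 10.36 without overexpressor myoblast library B, the 1 library above 0 counts there, 6.38 without library A and 7.56 without control myotube library C, and the knockout value was 4.62 without the last of these.

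The clones were also compared with each other. In myoblasts 15 members were higher and 15 lower in the overexpressor than in the knockout (38.5% each), beside 25.7% and 26.9% of all genes. The widest gaps were Acsl6 (log2 -4.64, SE 0.20, adjusted p = 1.39e-12), Cd36 (given above) and, on the other side, Plin2 (log2 1.69, SE 0.08, adjusted p = 9.44e-12). In myotubes 12 were higher (30.8%) and 11 lower (28.2%), close to the shares of all genes, 30.6% and 29.1%. Lpl was lower in the overexpressor by log2 -1.64 (SE 0.17, adjusted p = 3.09e-07), and Acsl4 was higher by 1.16 (SE 0.27, adjusted p = 0.00190), or 0.71 without overexpressor library C. For 16 members the myotube clones did not differ past the threshold, which does not show that they were alike.

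RefSeq start windows, of 250 bases before to 50 after the start, were found for 33 of the 40 members, 39 windows in all. GGGCGG, a GC-box sequence, was in 27 of them on either strand (69.2%), beside 35.7% of all 32851 mouse windows of this length. CAGCTG was in 12 (30.8% beside 16.3%), and AGGTCA, the core of many nuclear receptor sites, in 11 (28.2% beside 16.3%). TCAAGGTCA, the longer site known for estrogen-related receptors, which contains AGGTCA, was in 1 (2.56% beside 0.423%). A pattern that fixes only outer letters of a MEF2 site, with any base in its centre, was in 0 (beside 3.69%). The full MEF2 consensus was not searched, so these values do not count MEF2 sites. Median GC content was 60.7% in the member windows and 52.7% in all windows; a match describes the letters of the window and shows no binding.

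Other genes of the pathway were counted by list. To be read beside them, the shares of all genes that rose and fell were 20.7% and 19.7% in overexpressor myoblasts, 26.4% and 26.6% in knockout myoblasts, 26.2% and 30.9% in overexpressor myotubes and 31.0% and 37.0% in knockout myotubes. For fatty acid synthesis 10 of 12 genes were tested. In myoblasts 1 rose and 8 fell in the overexpressor and 0 rose and 10 fell in the knockout, and in myotubes 1 rose and 6 fell, and 2 rose and 7 fell. The list's medians were log2 -0.49, -0.88, -0.35 and -0.74 in that order, beside 0.02, 0.02, -0.04 and -0.07 over all genes. Fasn, fatty acid synthase, had 760 ± 22.5 CPM in control myoblasts, 521 ± 15.3 in the overexpressor and 373 ± 18.7 in the knockout. Lipolysis and droplet genes, 12 of 14 tested, had 4 higher and 2 lower in overexpressor myoblasts, 4 and 7 in knockout myoblasts, 0 and 8 in overexpressor myotubes and 1 and 8 in knockout myotubes. Plin4, a droplet coat protein, had 14.2 ± 1.49 CPM in control myoblasts, 32.9 ± 0.663 in the overexpressor and 1.17 ± 0.377 in the knockout.

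Among 19 regulators tested, to be read against the same shares, 4 rose and 5 fell in overexpressor myoblasts, 10 and 5 in knockout myoblasts, 6 and 9 in overexpressor myotubes and 10 and 7 in knockout myotubes. Esrrb, an estrogen-related receptor, had 0.0881 ± 0.0439 CPM in control myoblasts, 0.553 ± 0.0468 CPM in those of the overexpressor and 4.76 ± 0.345 CPM in those of the knockout (knockout log2 5.74, SE 0.25, adjusted p = 2.05e-12). Ppargc1a, the coactivator PGC-1α of mitochondrial genes, had 0.304 ± 0.139, 0.305 ± 0.158 and 7.08 ± 0.407 CPM in the same order (knockout log2 4.52, SE 0.38, adjusted p = 2.63e-08). In control myoblasts Esrrb was close to the floor of 3 counts a library (0.0375 to 0.0693 CPM). Ppargc1a was also low there, so depth limits both fold changes. Prkag3, the muscle gamma subunit of AMP-activated kinase, had 1.78 ± 0.216, 2.52 ± 0.482 and 38.3 ± 3.46 CPM. Pparg, the lipid-storage member of the peroxisome proliferator-activated receptors (PPARs), was lower in knockout myoblasts, at 6.12 ± 0.668 CPM against 11.4 ± 1.18 (log2 -0.90, SE 0.11, adjusted p = 1.33e-06).

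The remaining lists are small and carry the same background shares. Of 5 other PPAR target genes tested, 0 rose and 2 fell in overexpressor myoblasts, 0 and 4 in knockout myoblasts, and 2 and 2 in the myotubes of each clone. Angptl4, a secreted inhibitor of lipoprotein lipase, had 68.4 ± 7.31 CPM in control myotubes, 17.7 ± 2.72 in the overexpressor and 8.52 ± 0.560 in the knockout. Pdk4, the kinase that shuts pyruvate out of oxidation, had 12.4 ± 0.749, 44.7 ± 4.14 and 34.3 ± 3.94 CPM there. Of 16 peroxisomal genes tested, 6 rose and 1 fell in overexpressor myoblasts, 3 and 6 in knockout myoblasts, 4 and 2 in overexpressor myotubes and 4 and 5 in knockout myotubes. Hsd17b4, the peroxisomal bifunctional enzyme, was the gene lower in overexpressor myoblasts, with 88.9 ± 5.68 CPM against 116 ± 5.97. For 21 other mitochondrial enzymes and carriers the counts of higher and lower genes were 7 and 6 in overexpressor myoblasts, 8 and 6 in knockout myoblasts, 8 and 4 in overexpressor myotubes and 9 and 9 in knockout myotubes.

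Genes whose log2 CPM over the 18 libraries was most like that of Cd36 were Klhl31 (Pearson r 0.992), Ttc1 (0.987), Neb (0.987), Pdlim3 (0.984) and Tmem38b (0.983). The libraries fall into 6 groups and share line and stage, so these values describe a shared order of groups.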

How the data were processed

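Polyadenylated RNA of 18 C2C12 libraries was sequenced on an Illumina instrument. The deposited table holds raw counts per gene ID, made by the authors with STAR 2.7.9a and featureCounts of Subread 2.0.3 on build mm10, after FastQC 0.11.7, per the submitters' processing notes, which also name DESeq2 1.32.0. The annotation release, strand use and handling of multi-mapped reads are not given in the sources used here. A transformed table was not used. Gene IDs were named with GENCODE M21 (55190 of 55450 matched, the other 260 holding 0.00589% of counts).

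Groups came from the sample labels. Counts were filtered with filterByExpr, scaled by TMM (factors 0.895 to 1.08) and fitted over all 6 groups with edgeR 4.0.16 in R 4.3.3 (robust quasi-likelihood, 12 residual degrees of freedom, 11 contrasts, with limma 3.58.1 loaded), with Benjamini-Hochberg adjustment over 17912 genes and a threshold of 0.05. A count of 3 in a library, 0.0375 to 0.0693 CPM, was taken as the floor, which covers counting error only. The edgeR procedure was tried on simulated counts for overexpressor against control myoblasts only, with changes set in genes above a minimum level. Other contrasts, the alternatives and changes in genes near the floor were not simulated.

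Members and lists were chosen with earlier results of these data known. Named genes were up to 10 with the highest and 10 with the lowest log2 fold change past the threshold and at least 1 CPM in the higher group, plus Cpt1a, Cpt1b, Acadm, Hadha, Cd36, Fabp3, Plin2 and Ucp2, with up to 3 per direction from each other list, and the 5 genes most correlated with Cd36. Further members were named after their values were seen, to cover each role. Alternatives were DESeq2 size factors, library totals, no filter on low counts, the Wald test of DESeq2 1.42.0, the replicate letter as a block, and leaving out each library.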

Additional observations from a re-analysis of the deposited data

Results flagged for a closer look

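The change from myoblast to myotube differed between a clone and control, by the interaction term of the edgeR fit, for 20 members in the overexpressor and 23 in the knockout. Values are the log2 change in the clone minus that in control, with Benjamini-Hochberg adjusted p. Both sets of values rest on the same control libraries.

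In the overexpressor, uptake genes differed by -2.15 for Slc27a1 (adjusted p = 2.93e-11), -3.37 for Lpl (2.30e-09) and 2.62 for Fabp5 (8.48e-09). Activation and shuttle genes differed by 0.40 for Acsl1 (0.0110), 0.85 for Acsl3 (0.00425), -0.58 for Cpt1a (0.00281) and 0.71 for Crat (5.05e-05). Among cycle enzymes the values were 0.52 for Acads (0.00657), 0.43 for Hadhb (0.0344), -0.49 for Echs1 (0.000716), 1.15 for Acaa2 (1.23e-06), -0.31 for Eci1 (0.0210), -0.45 for Eci2 (0.000415) and 0.43 for Etfa (0.0267). Acaca, the malonyl-CoA producer, differed by -0.37 (0.00685). Thioesterases differed by -3.47 for Acot2 (2.63e-11) and -0.56 for Acot13 (6.16e-05), uncoupling proteins by 2.67 for Ucp2 (1.29e-09) and 6.96 for Ucp3 (5.28e-06), and the droplet coat gene Plin2 by -1.33 (5.03e-08).

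In the knockout, uptake genes differed by -4.50 for Cd36 (adjusted p = 6.86e-05), -1.50 for Slc27a1 (2.73e-09), 0.46 for Slc27a4 (0.00732), -3.43 for Lpl (1.04e-09), -1.17 for Fabp3 (0.000298) and 3.59 for Fabp5 (1.32e-10). Activation and shuttle genes differed by -1.20 for Acsl4 (0.0163), -4.82 for Acsl6 (7.18e-11), 0.53 for Slc25a20 (0.00105) and 1.27 for Crat (3.93e-08). Cycle enzymes differed by 0.49 for Acadm (0.00503), 1.06 for Acads (7.22e-06), -0.27 for Echs1 (0.0358) and 1.02 for Acaa2 (4.30e-06), and the carboxylase Acacb by 1.11 (0.00413). The last were -3.89 for Acot2 (8.01e-12), -0.70 for Acot13 (4.34e-06), 1.59 for Ucp2 (6.15e-07), 4.03 for Ucp3 (0.000108) and -0.55 for Plin2 (0.000762). Smaller values past the threshold were 0.23 for Acadl (0.0385), 0.35 for Etfb (0.0431) and 0.41 for Mlycd (0.0198), and each lost it on leaving out any of several single libraries.

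Without overexpressor myotube library C, the overexpressor value for Cd36 moved from -0.73 (adjusted p = 0.513) to -1.33 (0.00960), Eci1 from -0.31 to -0.16 (0.284) and Acaca from -0.37 to -0.22 (0.116). Hadhb and Etfa in the overexpressor and Echs1 in the knockout lost the threshold on leaving out several other single libraries. Scaling alone also ended some calls. With DESeq2 size factors the adjusted p was 0.207 for Eci1 and 0.0809 for Acaca in the overexpressor, and 0.450 for Echs1 in the knockout. With library totals it was 0.362, 0.196 and 0.113 in that order. These 3 also missed the threshold without the filter on low counts and with the Wald test of DESeq2.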

How the results depend on the processing

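Over 225 results on single members, 2715 values came from alternatives. Of these, 2627 kept direction and side of the threshold, 80 lost the threshold, 4 gained it and 4 changed sign. Sign changes were Cpt1b in overexpressor myoblasts, 0.01 without control library B and 0.11 without overexpressor library A (leave-one-out range -0.80 to 0.11), Acadm there, -0.00 without overexpressor library B (leave-one-out range -0.00 to 0.12), and Hadha in overexpressor myotubes, 0.02 with library totals; none of these passed the threshold. Among 295 calls over 39 members and 11 contrasts, 248 held under all alternatives run and 47 were lost under at least 1. Of the values not called, 45 passed the threshold under at least 1 alternative. Members higher in overexpressor myoblasts numbered 7 to 10 on leaving out single libraries, 7 without control library B. Scaled by library totals, 17 rather than 6 members were lower in control myotubes and 14 rather than 9 in those of the knockout, with the all-gene median moving from 0.07 to -0.17 and from -0.08 to -0.24. It moved the share of higher genes among all calls from 54.0% to 37.9% and from 45.5% to 34.0% there, and from 45.8% to 57.8% in overexpressor against control myotubes (median -0.04 to 0.11). For the overexpressor response that share went from 42.7% to 61.0% (median -0.05 to 0.14), or 53.9% with DESeq2 size factors, which moved the knockout response from 40.4% to 52.0% (median -0.12 to 0.04). DESeq2 size factors also moved the all-gene medians of clone against control myotubes to 0.07 and 0.06. Replicate letters showed no clear pairing of samples: of 45 correlations of deviations, -0.36 to 0.26, only 3 exceeded 0.1. With 3 libraries a group, these values cannot exclude shared batches. With the letter as a replicate block, members higher and lower were 10 and 11 in overexpressor and 13 and 15 in knockout myoblasts, 17 and 13 and then 19 and 12 in myotubes, and 11 and 9 for the knockout response. Genes within a few counts of the floor, Cpt1b, Plin5 and Ucp3 in myoblasts, are limited by depth. The same limit holds for Cd36 and Acsl6 values set against control myoblasts (5 to 11 and 10 to 16 counts a library). It also holds for Ucp3 values set against control myotubes (6 to 17 counts), and for those of Esrrb and Ppargc1a set against control myoblasts.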
